A study of Mus musculus with 8 samples.

Results

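Hepatic expression of 10 genes of the pericentral zone of the liver lobule and of the Wnt/beta-catenin pathway was examined in mice administered a standard chow diet (STD) or an atherogenic diet (ATH): Glul, Oat, Rhbg, Slc1a2, Lgr5, Axin2, Tbx3, Cyp2e1, Cyp1a2 and Lect2. The genes were found by their symbols in the array files, which gave 16 probes of 41174 non-control probes, and 10 genes of 19505 named genes. Of these 16 probes, 13 were detected, at least 1 for each gene, among 31063 detected probes on the array. Livers came from adult male wild-type C57BL/6 mice (C57BL/6J in the study's methods) aged 14 to 17 weeks, 4 per diet, after 4 weeks on either the chow or a diet rich in fat and cholesterol that also held cholic acid. Total RNA from each snap-frozen liver was labelled with Cy3 and hybridised to 1 Agilent whole mouse genome array per mouse, so each array is a separate animal. All 4 STD arrays shared 1 slide and all 4 ATH arrays the other, and effects of slide and of diet cannot be told apart in any difference given here.

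Hepatocytes differ in their work along the path of blood from the portal vessels to the central vein. Endothelial cells of the central vein release Wnt ligands and R-spondins, and hepatocytes next to that vein respond through beta-catenin with a program of glutamine synthesis, ammonium and glutamate uptake and xenobiotic metabolism, while periportal hepatocytes carry most of the urea cycle. Glul, Rhbg, Slc1a2, Oat, Lgr5, Axin2, Tbx3 and Lect2 are known beta-catenin-dependent genes of liver, and Cyp2e1 and Cyp1a2 are P450 enzymes of a broader pericentral band.

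Expression is given as the scaled log2 signal, which is the log2 of the processed spot intensity minus the 75th percentile of all non-control probes on the same array, so that 0 stands for that percentile. This value compares arrays for 1 probe, and levels of different probes are not comparable. Well-above-background signal was seen at 72.3% to 77.8% of spots per array. The hepatocyte markers were present throughout, with all 9 of 9 measured markers detected on all 8 arrays.

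In mice administered the atherogenic diet, 4 of the 10 genes fell and 0 rose at an adjusted p of 5% (limma, Benjamini-Hochberg over all detected probes), each gene taken by its brightest probe. At an unadjusted p under 0.05, 5 of the 10 were lower and 0 higher. The genes that fell were Rhbg, an ammonium transporter, Oat, the ornithine aminotransferase that feeds ornithine carbon toward glutamate, Cyp1a2, a P450 that oxidises caffeine and arylamines, and Slc1a2, a glutamate transporter. Glul, the glutamine synthetase that acts beside these transporters, had a change of -0.16 (SE 0.13) on the log2 scale that did not pass the test. In bulk liver, fewer cells of a type and less RNA per cell cannot be told apart. Among all detected probes, 4.94% were called lower and 3.06% higher. The groups did not overlap, with every ATH liver lower, for 5 of the 10 genes, beside 13.8% of all detected probes, and with every ATH liver higher for 0 of the 10, beside 6.01%. All 10 changes were negative with this scaling, but 67.1% of all detected probes were negative too, and only 6 of the 10 were negative without scaling and 8 with the spike-in or quantile scaling. Oat and Rhbg were the 2 genes still called lower in each of those settings, beside 1.2% of all detected probes without scaling, 1.28% with spike-in scaling and 2.83% with quantile normalisation.

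**Figure D1:**
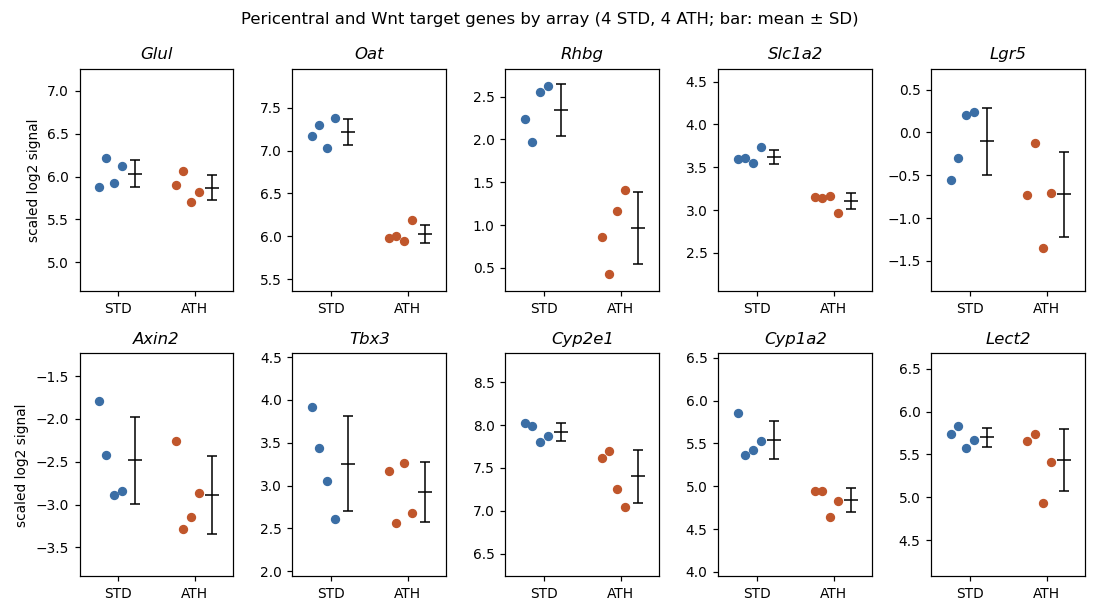
Scaled log2 signal (y axis) of the brightest probe of each gene in the 4 STD and 4 ATH livers, 1 point per array, with bars for the mean ± SD. Every y axis spans the same range of log2 units. The ATH points of Oat lie between 5.94 and 6.19 and those of Rhbg between 0.43 and 1.41, below all STD points of the same gene, while those of Glul lie within 5.71 to 6.06 and overlap the STD points.

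Oat had the smallest p of the 10 genes. Its probe A_51_P141535 (mm7 build of the array design, chr7:128962937-128962996, minus strand) read 7.17, 7.30, 7.04 and 7.38 in STD livers 1 to 4, and 5.98, 6.00, 5.94 and 6.19 in ATH livers 1 to 4. All 4 ATH livers were lower than every STD liver, and the distance between the groups was larger than the spread within either. The mean fell from 7.22 ± 0.15 to 6.03 ± 0.11 (SD, n = 4), which is 2.29-fold lower (95% interval 1.88 to 2.79; limma adjusted p = 0.00423). Oat was the only 1 of the 10 genes called at 1%, beside 0.335% of all detected probes called lower and 0.193% called higher at that threshold. The call held in all 20 alternative settings that were run, with a log2 fold change of -0.75 in the smallest case, without scaling between arrays. Among these, the setting that took the probe with the largest change used the same probe. The log2 table deposited by the authors nearly repeated the values used here.

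Rhbg had the largest change. The probe A_51_P400366 (mm7, chr3:88357144-88357203, minus strand) read 2.24, 1.97, 2.55 and 2.62 in STD livers and 0.87, 0.43, 1.16 and 1.41 in ATH livers. The highest ATH liver was still below the lowest STD liver, although the ATH livers spread over a wider range than they did for Oat. The mean fell from 2.35 ± 0.30 to 0.97 ± 0.42 (SD, n = 4), or 2.60-fold (95% interval 1.80 to 3.77; limma adjusted p = 0.0179). The call was lost when STD 1, STD 3 or STD 4 was left out, with an adjusted p of at most 0.0564 and a log2 fold change between -1.53 and -1.20 over the 8 fits that left out 1 array. It held without scaling between arrays, at -0.93 and an adjusted p of 0.0431.

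Slc1a2 encodes the glutamate transporter that in liver marks the hepatocytes next to the central vein. The probe A_52_P168496 (mm7, chr2:102628336-102628395, plus strand) read 3.59, 3.61, 3.55 and 3.74 in STD livers and 3.15, 3.15, 3.16 and 2.97 in ATH livers, with no overlap and little spread in either group. The mean fell from 3.62 ± 0.08 to 3.11 ± 0.09 (SD, n = 4), or 1.43-fold (limma adjusted p = 0.0338). With the arrays paired by position on the slide the adjusted p was 0.0635, and the call was kept in only 1 of the 8 fits that left out an array, that without ATH 2. Without scaling the log2 fold change was -0.07 with an adjusted p of 0.678.
The designed 60-base sequence behind this reading is shown since it carries the Slc1a2 call.
Slc1a2 A_52_P168496: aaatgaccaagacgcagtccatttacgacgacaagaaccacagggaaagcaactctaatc
A second Slc1a2 probe, A_51_P477875 (mm7, chr2:102628431-102628490, plus strand), had a log2 fold change of -0.44 (SE 0.15, limma adjusted p = 0.101), and its groups all but touched, since the lowest STD liver and the highest ATH liver both read 0.835. The third, A_52_P311194, which lies on the opposite strand in the array design, was well above background on 4 of 8 arrays and was not tested. A further probe that the array files name 2900019G14Rik, a synonym of Slc1a2 in RefSeq, was lower in all ATH livers as well, at -0.52 (SE 0.15, limma adjusted p = 0.0706). It is not counted among the 16 probes.

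Of the P450 genes, Cyp1a2 fell and Cyp2e1, the ethanol-inducible P450, had a change of similar direction that did not pass the test. The Cyp1a2 probe A_52_P595871 (mm7, chr9:57707919-57707978, minus strand) read 5.86, 5.37, 5.43 and 5.52 in STD livers and 4.94, 4.95, 4.64 and 4.83 in ATH livers. The groups did not overlap. The mean fell from 5.54 ± 0.22 to 4.84 ± 0.14 (SD, n = 4), or 1.63-fold (95% interval 1.29 to 2.05; limma adjusted p = 0.0305, and 0.049 with the arrays paired by position). The other probe, A_51_P450140, whose target spans chr9:57708722-57709371 in mm7, gave nearly the same log2 fold change, -0.71 (SE 0.13), against -0.70 (SE 0.15). The call of the first probe rested on the scaling and on single arrays: the adjusted p was 0.207 without scaling, 0.128 with spike-in scaling and 0.101 with quantile normalisation, and at most 0.077 when STD 1, STD 3, STD 4, ATH 3 or ATH 4 was left out.

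Cyp2e1 read 8.03, 7.99, 7.80 and 7.87 in STD livers and 7.62, 7.70, 7.25 and 7.04 in ATH livers by probe A_51_P283456 (mm7, chr7:137190949-137191008, plus strand). All ATH livers lay below all STD livers. The highest ATH liver (7.70) was closer to the lowest STD liver (7.80) than to the lowest ATH liver (7.04). The means were 7.92 ± 0.11 and 7.40 ± 0.31 (SD, n = 4), a log2 fold change of -0.52 (95% interval -0.90 to -0.14; limma adjusted p = 0.0869). Leaving out ATH 2 gave an adjusted p of 0.0467, and normexp background correction gave 0.0369.

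Glul is restricted to the hepatocytes around the central vein. Its brighter probe A_52_P101279 (mm7, chr1:153870358-153870417, plus strand) read 5.88, 6.22, 5.93 and 6.12 in STD livers and 5.91, 6.06, 5.71 and 5.82 in ATH livers. The groups overlapped, since 2 ATH livers read higher than the lowest STD liver. The means were 6.04 ± 0.16 and 5.87 ± 0.15 (SD, n = 4), and the interval of the log2 fold change ran from -0.47 to 0.14 (limma adjusted p = 0.448), so a decrease larger than 0.47 on the log2 scale lay outside it with this scaling. The direction turned with the scaling, to 0.28 without scaling, 0.15 with spike-in scaling and 0.14 with quantile normalisation, none of which passed the test. The second Glul probe, A_51_P441798, gave -0.13 (SE 0.22, limma adjusted p = 0.725).

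**Figure D2:**
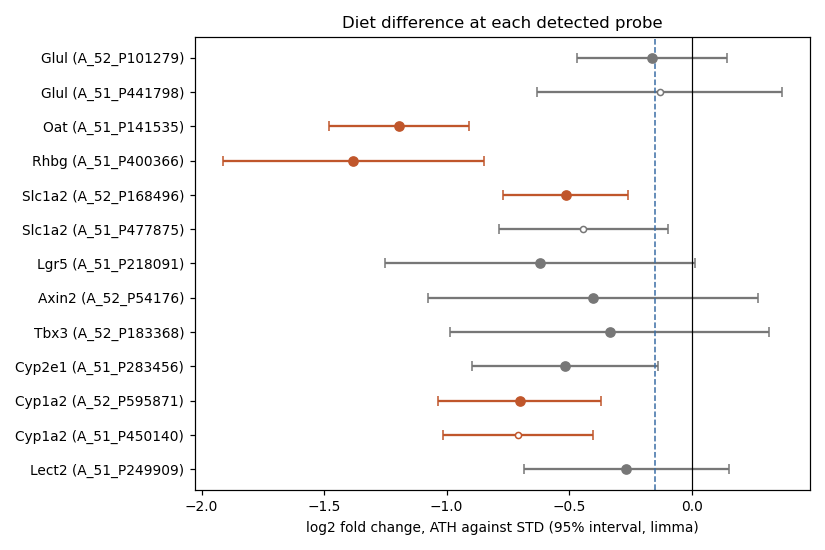
Log2 fold change, ATH against STD (x axis), of each of the 13 detected probes of the 10 genes, with the 95% interval from limma as a bar; the dashed line marks the median of all detected probes, -0.15. The intervals of Oat, Rhbg, both Cyp1a2 probes, Slc1a2 A_52_P168496 and A_51_P477875 and Cyp2e1 lie below 0, of which Cyp2e1 and Slc1a2 A_51_P477875 did not pass the adjusted test, and those of the other probes, both Glul probes among them, cross it.

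The receptor, feedback and transcription factor members of the group did not pass the test. Lgr5, a receptor for R-spondins, read -0.56, -0.30, 0.20 and 0.24 in STD livers and -0.73, -0.12, -1.35 and -0.70 in ATH livers by probe A_51_P218091, with overlapping groups. Its log2 fold change was -0.62 (95% interval -1.25 to 0.01; limma adjusted p = 0.183), and a second Lgr5 probe, A_52_P30169, was not well above background on any array. Axin2, the feedback scaffold of beta-catenin degradation, read between -2.88 and -1.79 in STD livers and between -3.28 and -2.26 in ATH livers, with a change of -0.40 (95% interval -1.08 to 0.27; limma adjusted p = 0.396). Tbx3, a T-box transcription factor, ranged from 2.61 to 3.92 in STD livers and from 2.57 to 3.27 in ATH livers, and its change was -0.33 (95% interval -0.99 to 0.32; limma adjusted p = 0.467). For Lgr5, Axin2 and Tbx3 the range within each diet was wider than the distance between the means, and the Axin2 and Tbx3 changes turned positive without scaling, at 0.04 and 0.11. The second Tbx3 probe, A_52_P389431, was well above background on 3 of 8 arrays and was not tested. Lect2, a secreted protein of hepatocytes, read 5.57 to 5.83 in STD livers and 4.93 to 5.73 in ATH livers, with a change of -0.27 (95% interval -0.69 to 0.15; limma adjusted p = 0.367). Its direction turned without scaling (0.18), with spike-in scaling (0.04) and with quantile normalisation (0.02).

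Since the scaling moved all probes together, the members were also set against the median of all detected probes. That median was -0.15 with 75th percentile scaling, 0.16 with spike-in scaling and 0.30 without scaling. The 75th percentile itself was 0.45 log2 units higher on the ATH arrays than on the STD arrays, and the spike-in RNA 0.14 higher. Relative to the median of all detected probes, the log2 fold change was -1.23 for Rhbg, -1.04 for Oat, -0.55 for Cyp1a2, -0.47 for Lgr5, -0.37 for Cyp2e1, -0.36 for Slc1a2, -0.25 for Axin2, -0.18 for Tbx3, -0.12 for Lect2 and -0.01 for Glul, values that are the same under any scaling that shifts a whole array. With quantile normalisation, which does not, Glul was 0.20 above and Lect2 0.08 above that median, and the other 8 genes were below it.

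**Figure D3:**
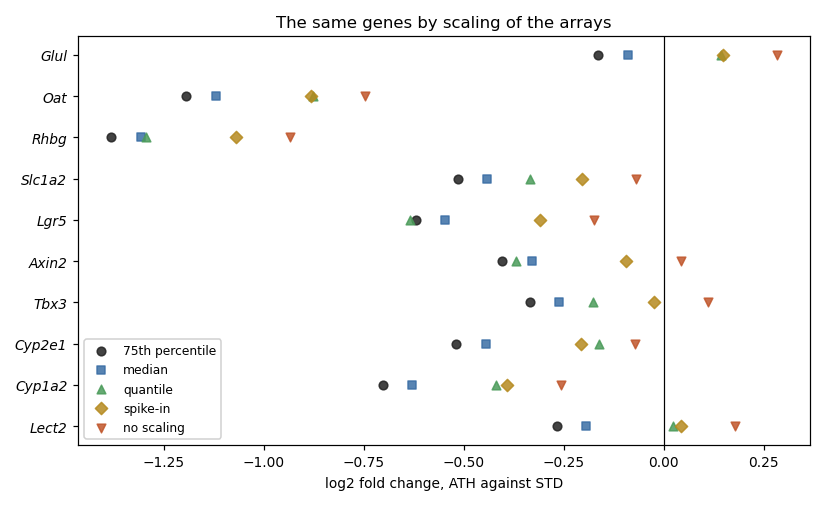
Log2 fold change, ATH against STD (x axis), of the brightest probe of each gene with 75th percentile, median, quantile and spike-in scaling and without scaling between arrays, 1 symbol per setting. Oat and Rhbg stay below 0 in every setting, at -0.75 and -0.93 in the smallest, while Glul runs from -0.16 to 0.28.

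The scaling cancels when a gene is taken relative to Glul on the same array, a comparison chosen after the values had been seen. The difference from Glul was lower in ATH than in STD livers by 1.03 for Oat, whose values relative to the STD mean were 0.11, -0.10, -0.07 and 0.07 in STD livers and -1.11, -1.24, -0.95 and -0.82 in ATH livers. All 4 ATH livers lay below all STD livers for Oat, Rhbg (-1.22, SE 0.34), Cyp1a2 (-0.54, SE 0.18) and Cyp2e1 (-0.35, SE 0.14). For each of these the exact two-sided permutation test gave p = 0.0286, the smallest that 4 against 4 livers allow. After Benjamini-Hochberg adjustment over the 9 genes compared it was 0.0643, so none passed 5%. With this smallest p, a gene could not pass on its own whatever its change, so failing to pass says little about its size. For Slc1a2 the difference was -0.35 (SE 0.11) with 3 of 4 ATH livers below all STD livers (exact permutation p = 0.0571, adjusted 0.103). Lgr5 gave -0.46 (exact permutation p = 0.143, adjusted 0.214), and Axin2, Tbx3 and Lect2 gave differences between -0.24 and -0.10 with exact permutation p of 0.571 or more.

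**Figure D4:**
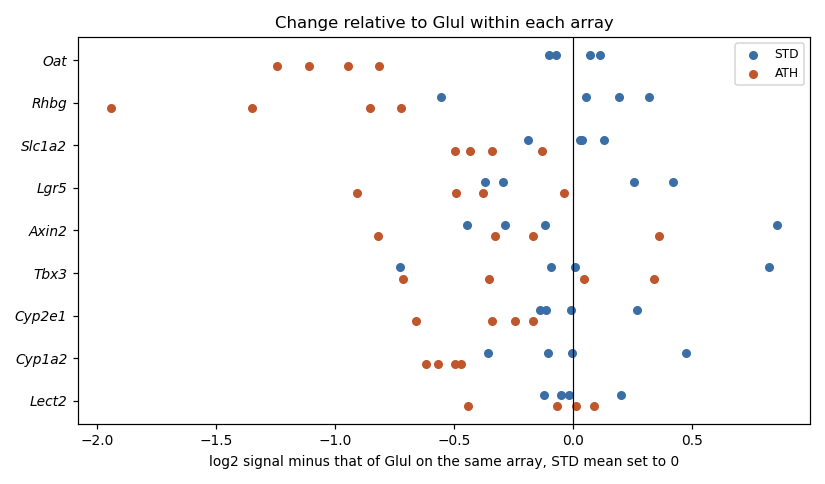
Log2 signal minus that of Glul on the same array (x axis), with the STD mean of each gene set to 0, for the other 9 genes; 1 point per liver, 4 STD and 4 ATH. The ATH points of Oat lie between -1.24 and -0.82 and the STD points between -0.10 and 0.11.

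The array profiles of Glul and Rhbg were also set against those of all detected probes with a gene symbol, by the root mean square difference of the centred log2 values over the 8 arrays. The centring kept the difference between the diets, and Rhbg was taken for its large change. Probes near Rhbg therefore have changes of similar size by construction. The ranks partly restate the fold changes and are not separate support for them. Dennd10 (0.0297), Tma7 (0.0358) and Dnajb6 (0.0377) were nearest to Glul, each with a log2 fold change between -0.17 and -0.12 that did not pass the test. Proca1 (0.202), Bhmt (0.217) and Ntn3 (0.231) were nearest to Rhbg, and their log2 fold changes were -1.44, -1.21 and -1.01. Bhmt is the betaine-homocysteine methyltransferase of liver. Among 26314 probes ranked by likeness to Rhbg, Oat was at rank 49, Cyp1a2 at 1137, Slc1a2 at 1812, Lgr5 at 5838, Cyp2e1 at 5962, Glul at 10857, Axin2 at 11590, Lect2 at 11718 and Tbx3 at 13330.

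Beyond the 10 genes, other hepatocyte genes of the pericentral zone were also called lower more often than higher. Of 23 measured, 6 fell and 0 rose, and the median log2 fold change was -0.53, against -0.14 over all 16563 detected genes, of which 5.3% were called lower and 4.05% higher. Csad, the cysteine sulfinic acid decarboxylase of taurine synthesis, changed by -1.99 (SE 0.36, limma adjusted p = 0.0203). Aldh1a1, a retinaldehyde dehydrogenase, changed by -1.22 (SE 0.16, limma adjusted p = 0.00751), Cyp2a5, a coumarin-hydroxylating P450, by -1.08 (SE 0.18, limma adjusted p = 0.0181) and the phosphatase Lhpp by -1.05 (SE 0.14, limma adjusted p = 0.00899). Without scaling 4 of the 23 were called lower and the median was -0.08.

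Genes of the periportal zone, at the opposite end of the lobule, were called too. Of 20 measured, 5 fell and 0 rose, with a median of -0.47. They included Gls2, the liver glutaminase, at -1.21 (SE 0.20, limma adjusted p = 0.0179), and the urea cycle enzymes Asl at -1.04 (SE 0.18, limma adjusted p = 0.0178), Arg1 at -0.77 (SE 0.15, limma adjusted p = 0.0228) and Ass1 at -0.70 (SE 0.17, limma adjusted p = 0.0449). With the arrays paired by position, 2 of the 20 were called lower, and Arg1 and Ass1 had adjusted p of 0.0556 and 0.0682. Without scaling the median was -0.02 and 2 were called lower. Whether the pericentral and periportal genes differed in their change was not tested.

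For the Wnt pathway outside the hepatocyte zonation genes, the counts stand beside 5.3% of all detected genes called lower and 4.05% called higher, and in lists this small they are near that background. Of 12 other beta-catenin target genes, 0 passed the test in either direction (median -0.07; 0 lower and 2 higher at an unadjusted p under 0.05). With the arrays paired by position 1 of them, the cyclin Ccnd1, was called higher (limma adjusted p = 0.0293). In the unpaired fit its change was 1.22 (SE 0.35, limma adjusted p = 0.0640). Of 12 measured Wnt ligands, R-spondins and secretion factors, only Wls, the carrier that brings Wnt proteins to the cell surface, was called, at 0.70 (SE 0.12, limma adjusted p = 0.0189, and 0.0502 with the arrays paired by position). The ligands that liver endothelium is known for gave -0.24 (SE 0.26) for Wnt2 and -0.39 (SE 0.18) for Wnt9b, and the R-spondin Rspo3 gave -0.12 (SE 0.29), none of which passed the test. Of 23 receptors and intracellular transducers, Dvl3, a Dishevelled adaptor, was called, at -0.84 (SE 0.20, limma adjusted p = 0.0408, and 0.0664 with the arrays paired by position). The beta-catenin transcript Ctnnb1 changed by 0.06 (SE 0.12), and 0 of 9 measured secreted antagonists passed the test (2 lower and 3 higher at an unadjusted p under 0.05). The largest change among these antagonists was that of Wif1, at 2.08 (SE 0.55, limma adjusted p = 0.0528, and 0.0860 with the arrays paired by position). Wif1 had a low signal, with scaled log2 means of -5.50 in STD and -3.42 in ATH livers, and was detected on only 6 arrays. With the pairing Sfrp5, at -0.78, was called lower (limma adjusted p = 0.0458) and Frzb was called higher, with scaled log2 means of -3.08 in STD and -1.98 in ATH livers (limma adjusted p = 0.0373). Of 5 measured targets of the aryl hydrocarbon receptor, the receptor through which Cyp1a2 is known to be induced, 0 passed (1 lower and 1 higher at an unadjusted p under 0.05). The Wnt calls moved with the scaling. Ctnnb1 was at 0.51 without scaling and 0.37 with spike-in scaling (limma adjusted p = 0.0164 and 0.0564). Ccnd1 was called higher in both settings (limma adjusted p = 0.0213 and 0.0400), as were other genes of these lists. Dvl3 was called in neither (limma adjusted p = 0.129 and 0.108). Of all detected probes, 7366 were called without scaling, 94.9% of them higher, and 2937 with spike-in scaling, 86.4% of them higher.

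**Figure D5:**
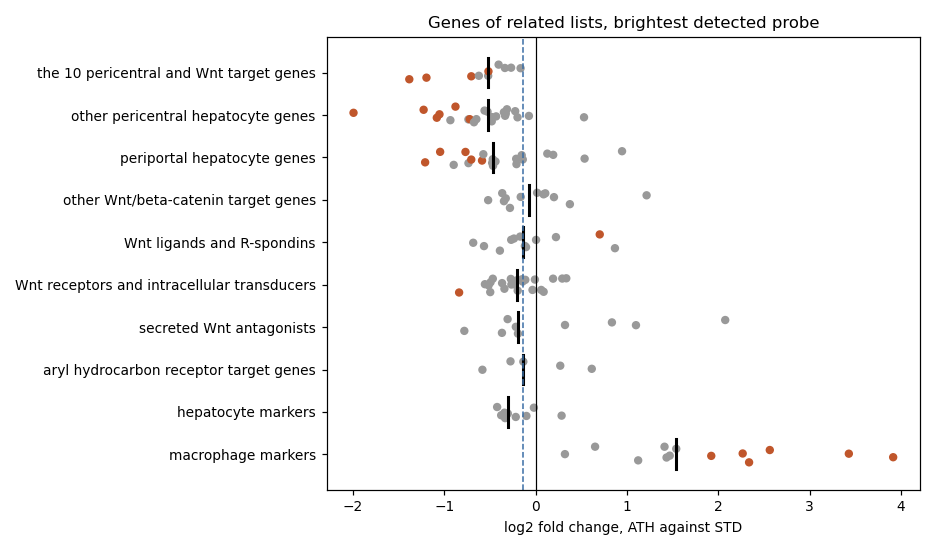
Log2 fold change, ATH against STD (x axis), of the brightest detected probe of each gene in related lists, 1 point per gene; orange points passed the test at an adjusted p of 5%, black bars are list medians and the dashed line is the median of all detected genes, -0.14. The medians of the 10 genes, the other pericentral genes and the periportal genes are -0.52, -0.53 and -0.47, and that of the macrophage markers is 1.54.

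Of 13 macrophage markers measured in the same livers, all 13 had positive changes and 6 rose, beside 4.05% of all detected genes called higher, and 3 of the 13 were called with the arrays paired by position, where Cd68, Ccr2 and Cd14 lost the call (limma adjusted p = 0.0551, 0.0551 and 0.0524). The median was 1.54. The summed signal of the 13 probes, in which the brightest probes weigh most, ran on the log2 scale from 6.12 to 6.54 in STD livers and from 6.997 to 9.39 in ATH livers. The markers were led by Itgax at 3.91 and Marco at 3.43 (limma adjusted p = 0.0288 and 0.0353). Clec4f, a marker of resident Kupffer cells, had the smallest change of the 13, at 0.32 (limma adjusted p = 0.290), and Vsig4 the next smallest, at 0.65 (limma adjusted p = 0.0834). Whether resident and recruited macrophages differed was not tested. The 9 hepatocyte markers had 0 calls (4 lower at an unadjusted p under 0.05) and a median of -0.30, which was 0.14 without scaling. Their summed signal, in which the brightest probes again weigh most, ran from 12.2 to 12.3 in STD livers and from 11.7 to 12.14 in ATH livers. Of the endothelial markers 1 of 10 rose (median 0.24), of the stellate cell markers 1 of 10 (median 0.37) and of the cholangiocyte markers 1 of 7 (median 0.16). Of the T and B cell markers 0 of 8 rose (median 0.25). These counts of calls were near the 4.05% of all detected genes called higher. At an unadjusted p under 0.05, 3 endothelial, 5 stellate, 3 cholangiocyte and 2 T and B cell markers were higher. Lower at that threshold were 0, 0, 0 and 1. All 10 stellate cell markers had positive changes. Col1a1, at 2.22, did not pass the test (limma adjusted p = 0.0909), and Col3a1, at 1.74, did (limma adjusted p = 0.0327). All measured markers of these lists were detected on all 8 arrays. The part that cell composition had in the changes of the 10 genes was not tested.

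Promoter windows from RefSeq (GRCm38.p6) were found for 7 of the 10 genes, all but Rhbg, Lgr5 and Tbx3. They were searched on both strands for CTTTGAT and CTTTGAA, letters of the TCF/LEF binding motif, which cannot match at the same place, and for TNGCGTG, the core of the aryl hydrocarbon receptor motif. CTTTGAT or CTTTGAA was found in 4 of the 7 windows, those of Slc1a2, Cyp2e1, Cyp1a2 and Lect2, and in 8.65% of all 32851 windows of the same length. TNGCGTG was in 0 of the 7 and in 5.07% of all windows. The windows of the called genes Oat, Cyp1a2 and Slc1a2 and of the genes that hold the letters but were not called, Cyp2e1 and Lect2, are printed in GRCm38.p6 coordinates, 5′ to 3′ along the gene's strand, with the motif in capitals.
Oat, chr7:132576349-132576648 (- strand): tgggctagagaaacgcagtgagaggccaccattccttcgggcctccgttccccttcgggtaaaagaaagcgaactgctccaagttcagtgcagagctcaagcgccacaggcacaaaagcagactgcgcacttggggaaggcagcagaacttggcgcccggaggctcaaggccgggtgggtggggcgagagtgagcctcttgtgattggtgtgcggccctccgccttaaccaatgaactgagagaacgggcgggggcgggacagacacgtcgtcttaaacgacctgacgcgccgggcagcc
Cyp1a2, chr9:57683606-57683905 (- strand): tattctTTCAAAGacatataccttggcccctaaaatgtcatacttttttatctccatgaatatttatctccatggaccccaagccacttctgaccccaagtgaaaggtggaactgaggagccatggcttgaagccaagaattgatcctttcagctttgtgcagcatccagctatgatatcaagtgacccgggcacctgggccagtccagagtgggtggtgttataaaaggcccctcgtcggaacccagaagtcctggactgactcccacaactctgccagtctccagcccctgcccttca
Slc1a2, chr2:102706188-102706487 (+ strand): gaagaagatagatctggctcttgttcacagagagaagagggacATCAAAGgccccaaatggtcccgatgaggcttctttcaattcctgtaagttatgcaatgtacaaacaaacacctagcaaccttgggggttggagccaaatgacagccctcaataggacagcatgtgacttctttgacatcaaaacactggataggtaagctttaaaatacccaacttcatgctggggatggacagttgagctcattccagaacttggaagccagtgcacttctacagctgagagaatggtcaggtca
Cyp2e1, chr7:140763569-140763868 (+ strand): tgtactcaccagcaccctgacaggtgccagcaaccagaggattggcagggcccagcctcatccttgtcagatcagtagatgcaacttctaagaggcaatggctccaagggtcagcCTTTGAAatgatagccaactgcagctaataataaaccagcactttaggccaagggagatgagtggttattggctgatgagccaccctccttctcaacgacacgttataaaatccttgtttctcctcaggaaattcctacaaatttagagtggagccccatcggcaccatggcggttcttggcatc
Lect2, chr13:56548489-56548788 (- strand): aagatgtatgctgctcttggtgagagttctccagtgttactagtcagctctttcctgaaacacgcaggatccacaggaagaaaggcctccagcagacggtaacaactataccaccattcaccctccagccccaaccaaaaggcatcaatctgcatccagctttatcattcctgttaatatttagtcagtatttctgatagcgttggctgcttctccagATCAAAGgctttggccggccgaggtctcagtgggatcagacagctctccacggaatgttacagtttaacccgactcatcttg
The capitals start 244 bases before the annotated start in Cyp1a2, 207 in Slc1a2, 135 in Cyp2e1 and 32 in Lect2. In Cyp1a2, Slc1a2 and Lect2 they read as the reverse complement, TTCAAAG or ATCAAAG, and in Cyp2e1 the letters run forward. The Oat window, from the gene with the smallest p, held none of the letters searched for, nor did that of Glul. These matches describe the letters of the windows and are not evidence of binding.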

How the data were processed

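Hepatic RNA of 8 mice was measured, 4 per diet, on 8 Agilent 1-colour arrays (n = 4 animals per group). The authors scanned the arrays and deposited the processed spot intensity made with Agilent Feature Extraction 9.5, which is already background-subtracted. A log2 table that was deposited beside the scanner files, with scaling and baseline not stated in the sources used here, covers the same arrays and served as an alternative. After constants per probe and per array were removed, 99.96% of its values matched the log2 intensities used here within 0.001. Its changes for the 10 genes were nearly the same, for example -1.1932 for Oat against -1.1935. It is therefore not an independent check. The number of arrays limits the precision.

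Intensity was averaged over spots without an outlier mark, taken to log2 and reduced by the 75th percentile of non-control probes on each array. A probe was detected if it was well above background, positive and significant on at least 3 of 4 arrays of a diet (31063 of 41174). Diets were compared with limma 3.58.1 in R 4.3.3 (lmFit and eBayes, two-sided), with Benjamini-Hochberg adjustment over all detected probes and calls at 5%. Each gene stands by its probe with the highest mean, and other probes are given beside it. Probes were named through RefSeq by accession (22951), symbol (6659) or synonym (3109), and otherwise kept the name in the files (8455). Probe positions are those of the mm7 design in the file headers, and exon annotation of that build was not used here.

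The 10 genes and the related lists were chosen with earlier results of these data known. Named genes were the 10 with every probe, in each list up to 4 called genes with the largest change, the defining markers, and the 3 probes most like Glul and Rhbg. Wnt2, Wnt9b, Rspo3, Ctnnb1, Ccnd1, Sfrp5, Frzb and Wif1 were named after their values were seen. Arrays with the same number lay at the same position of their slide, and their deviations from the group means correlated at 0.100, 0.229, 0.182 and 0.177, so a fit with position as a block was added. The procedure was tested on simulated data of the 31063 probes for the comparison of ATH with STD. It recovered 43% of 100 changes of 1 log2 unit and 84% of 100 changes of 2, with 10 false calls. The simulated noise was drawn independently for each probe and array, without a slide effect or a shift of a whole array. The arrays here differ in this, so these rates do not give the false calls or recovery in the real data. Alternatives changed the scaling, background correction, detection filter, threshold, block and single arrays, and included the methods' test with unequal variances.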

Additional observations from a re-analysis of the deposited data

Results flagged for a closer look

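Among the 26 groups of 4 livers tested, 1 had a liver far from the others. ATH liver 4 read 2.97 for Slc1a2 probe A_52_P168496, while the other 3 ATH livers read 3.15 to 3.16, and chance flags about 1 in 20 such groups. The liver lies farther from the STD livers than its group, and without it the adjusted p of Slc1a2 did not pass 5%. That loss was not particular to this liver, since the call was kept in only 1 of the 8 fits that left out an array.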

How the results depend on the processing

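Of the 10 genes, 4 were called lower with the settings reported. The count was 2 without scaling, with quantile normalisation, with spike-in scaling and without the detection filter, each time Oat and Rhbg. It was 1, Oat, with limma at 1% and with the methods' test called at 5% (adjusted p = 0.0454, above the 1% that the study's methods set). It was 3 with the replicate block (adjusted p for Slc1a2 0.0635, with no other call of the 10 genes changed), and it ran from 1 to 5 when single arrays were left out, being 1 without STD 1, STD 3 or STD 4, 2 without ATH 3 or ATH 4 and 5 without ATH 2. The number called higher was 0 in all these settings. The number of detected probes called was 2483 (38.2% higher), 7366 without scaling (94.9% higher), 6394 with normexp (18.9% higher), 1086 without the filter, 22 with the methods' test, 164 at 1%, 1322 with the replicate block and 394 to 3979 when single arrays were left out. The share called higher was 55.0% with median scaling, 54.3% with quantile normalisation and 86.4% with spike-in scaling. The direction turned for Glul (0.28 without scaling, 0.14 quantile, 0.15 spike-in), Axin2 (0.0429 without scaling), Tbx3 (0.11 without scaling) and Lect2 (0.18 without scaling, 0.0243 quantile, 0.0436 spike-in). The cause was not tested. A fit with the slide as a block was not run, since each slide held 1 diet.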
